A study of Mus musculus with 8 samples.

Results

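The Csrnp genes encode a small family of cysteine- and serine-rich nuclear proteins, and its members *Csrnp1*, *Csrnp2* and *Csrnp3* are 3 of the 45706 genes counted in this series. They were taken by name, and *Csrnp1* is among them because the study labels it as lower after MCH in these same wells. Neurons of the hippocampus of C57/Bl6 wild type mice, taken at E18 and grown in culture, received either MCH at 1 µM or its H2O vehicle for 4 h, and 4 wells of each treatment were sequenced as polyA RNA with a stranded kit. The sample labels also carry an Alzheimer's disease model tag, although the genotype they give is wild type in all wells of both treatments. The study describes 2 independent cultures that each gave 2 wells per treatment, so the wells of a treatment are not independent animals, and the culture of each well is given in neither source. *P* values here measure the spread between wells.

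MCH, melanin-concentrating hormone, is a peptide made by neurons of the lateral hypothalamus and acts through the G protein-coupled receptor MCHR1. CSRNP proteins are transcriptional activators that bind the DNA sequence AGAGTG. *Csrnp1*, also known as *Axud1*, was described as a gene induced by AXIN1, a scaffold of Wnt signaling, and as an immediate early gene of stimulated T cells. *Csrnp2* and *Csrnp3* are much less studied, and both also carry names as regulatory subunits of protein phosphatase 1. The family is also listed under the name of TGF-beta-induced apoptosis proteins. Mice that lack the whole family die around birth, whereas loss of single members is tolerated.

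The members lie on different chromosomes (GRCm38, GENCODE annotation). *Csrnp1* (ENSMUSG00000032515) lies on the minus strand at chr9:119971163-119984658 and has 5 annotated transcripts, of which the deposited tables quantify 1, Csrnp1-201, with 583 codons. *Csrnp2* (ENSMUSG00000044636) lies on the minus strand at chr15:100479570-100495488 with 1 transcript of 534 codons. *Csrnp3* (ENSMUSG00000044647) lies on the plus strand, spans chr2:65845767-66031546 and has 8 quantified transcripts, whose coding sequences are 597 or 585 codons long in 5 of them. *Csrnp1* lies inside the annotated span of *Cx3cr1*, a microglial chemokine receptor gene on the same strand that had 11 to 51 estimated counts per well. The antisense genes within *Csrnp3*, *Gm13619* and *Gm13617*, had 0 to 1.

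Short sequences around motif matches are shown first, because the family binds AGAGTG and because many immediate early genes carry the TGACG half-site of the cAMP response element near their start. RefSeq promoter windows (GRCm38.p6) of 300 bases, running from 250 before a start site to 50 after it, were searched on both strands for 10 strings. The strings were chosen with the members' windows in view, and 2 of them, CTGACGAG and TGACGCA, were copied from *Csrnp1* windows. Capitals mark the match, and each sequence is written along the strand of its gene.

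Csrnp1 TGACG, chr9:119984522-119984550, minus strand: cctgccgtgggcTGACGaggactcgggtg
Csrnp1 TGACG, chr9:119983794-119983822, minus strand: ggagttttccacTGACGaggagggcggag
Csrnp1 TGACG read on the opposite strand, chr9:119984868-119984896, minus strand: gaagaaagggccCGTCAtcctccccaccc
Csrnp1 AGAGTG, chr9:119984610-119984638, minus strand: ctcaggtgagcAGAGTGagggtgaaacgt
Csrnp2 AGAGTG, chr15:100495195-100495223, minus strand: cccggggagccAGAGTGcagagccgcccg

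TGACG was present in 4 of the 4 *Csrnp1* windows, in 0 of the 1 *Csrnp2* window and in 0 of the 2 *Csrnp3* windows, against 20.8% of all 32851 windows. The first site shown belongs to the start of the quantified *Csrnp1* transcript, with its match beginning 95 bases upstream. The palindromic element TGACGTCA, which contains TGACG, was in none of the members' windows and in 1.79% of all windows. The AP-1 element TGACTCA was in 1 of 4 *Csrnp1* windows, that of a start whose transcript was not quantified, and in 5.2% of all windows. AGAGTG was in 2 of 4 *Csrnp1* windows, in the 1 *Csrnp2* window and in 0 of 2 *Csrnp3* windows, against 16.4% of all. TATAAA was in 13.6% of all windows and CACGTG in 7.15%, and neither was in a member's window. GGGCGG was in 1 of 4 *Csrnp1* windows and in the *Csrnp2* window (35.7% of all), and CCAAT was in 1 of 4 *Csrnp1* windows and in 2 of 2 *Csrnp3* windows (37.4% of all). The copied strings were in 2 and 1 of the 4 *Csrnp1* windows and in 0.274% and 2.12% of all windows. G and C made up 57.7% to 78.3% of the *Csrnp1* windows, 69.7% of the *Csrnp2* window and 49.3% and 48% of the *Csrnp3* windows. The median of all windows was 52.7%, and the shares over all windows are not matched for this. The motif matches describe letters in the windows and carry no measurement of binding.

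Libraries held 26083936 to 31844861 estimated counts per well. In both treatments, the first principal component of the deviations from the treatment means held 59.8% of their variance and parted replicates 1 and 2 from replicates 3 and 4. The summed levels of 10 astrocyte markers were 407 to 453 TPM (salmon's abundance, scaled for transcript length and depth) in replicates 1 and 2 and 1181 to 1394 TPM in replicates 3 and 4. The 15 neuron markers summed to 8177 to 9095 TPM in all wells, and the 5 lists of cell type markers held 0 genes called between treatments by edgeR without a block, DESeq2 or limma voom, with 1 at an unadjusted *P* value under 0.05 in edgeR. In edgeR with a block for the replicate number, 1 of 15 neuron markers was called lower and 1 of 10 astrocyte markers higher. That fit called 3.98% of all tested genes. With a block that sets replicates 1 and 2 against 3 and 4, 1 neuron marker was called lower, against 4.46% of all tested genes. Without a block, 35 of 14962 tested genes (0.234%) had an adjusted *P* value under 0.05 by the quasi-likelihood test of edgeR (Benjamini-Hochberg adjusted), 31 lower and 4 higher after MCH, and 1272 (8.50%) had an unadjusted *P* value under 0.05.

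*Csrnp1*, the least abundant member, was lower after MCH. This contrast chose the gene, so it is described and not tested. The vehicle wells had 333 to 472 estimated counts and the MCH wells 229 to 321. In CPM, counts brought to one library size by TMM factors, the vehicle wells of replicates 1 to 4 held 14.9, 17.1, 11.7 and 14.4 and the MCH wells 10.3, 8.75, 7.92 and 8.99. Every MCH well was below every vehicle well, with replicate 3 the lowest of its treatment in both. The means were 14.5 ± 2.21 CPM in vehicle and 8.98 ± 0.965 CPM in MCH (SD, *n* = 4), a log2 fold change of −0.69 (SE 0.12), which is a change of −38.2%. In these bulk wells, fewer cells that express a gene and less of its RNA per cell cannot be told apart.

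Since the treatments did not overlap for *Csrnp1*, any pairing of the wells gives a decrease in each pair. The log2 differences between same-numbered wells were −0.54, −0.97, −0.57 and −0.68 in replicates 1 to 4. They averaged −0.76 over replicates 1 and 2 and −0.62 over replicates 3 and 4. All MCH wells lay below all vehicle wells in 443 of the 14962 tested genes (2.96%). The *Csrnp1* fold change, from the contrast that chose the gene, was the 57th lowest of all tested genes. Its spread between wells, a biological coefficient of variation of 13.5%, was above that of 64.0% of the tested genes.

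*Csrnp2* was slightly lower after MCH, but the difference did not pass the test across genes. Its CPM were 40.2, 40.9, 39.2 and 37.3 in the vehicle wells and 35.7, 36.6, 34.1 and 35.9 in the MCH wells. The treatments did not overlap, and the highest MCH well was close to the lowest vehicle well. All MCH wells were likewise below all vehicle wells in 443 of the tested genes (2.96%). The means were 39.4 ± 1.58 CPM in vehicle and 35.6 ± 1.05 CPM in MCH (SD, *n* = 4), with a log2 fold change of −0.15 (SE 0.04), or −9.80%. The adjusted *P* value was 0.348 by the quasi-likelihood test of edgeR (Benjamini-Hochberg adjusted). The two-sided exact permutation *P* value of the gene alone was 0.0286, the smallest that 4 wells against 4 allow. Any gene whose treatments do not overlap has that value. The assignments behind it also move wells across the split between replicates 1 and 2 and replicates 3 and 4. The direction of *Csrnp2* in these wells was known before this test was chosen. The log2 differences within pairs were −0.17, −0.16, −0.20 and −0.056.

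*Csrnp3*, the most abundant member, had higher levels after MCH. Its CPM were 133, 131, 135 and 134 in the vehicle wells and 156, 147, 138 and 145 in the MCH wells. The vehicle wells lay within a coefficient of variation of 1.20%, and every MCH well was above them, replicate 3 by the least. The means were 133 ± 1.59 CPM in vehicle and 146 ± 7.68 CPM in MCH (SD, *n* = 4), with a log2 fold change of 0.14 (SE 0.04), or 10.1%. All MCH wells lay above all vehicle wells in 459 of the tested genes (3.07%).

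The adjusted *P* value of *Csrnp3* was 0.352 by the quasi-likelihood test of edgeR (Benjamini-Hochberg adjusted) and no block, and the exact permutation *P* value was 0.0286, again the smallest possible and with the direction already known. With a block for the replicate number, the *Csrnp3* log2 fold change was 0.14 with an adjusted *P* value of 0.0343, and with replicates 1 and 2 against 3 and 4 as a block it was 0.14 with 0.0231. *Csrnp2* had adjusted *P* values of 0.0822 and 0.0531 in the same blocked edgeR fits. These fits called 596 genes (3.98%) and 668 genes (4.46%), so a call was more common in them, and the second block was read from the same counts. The log2 differences of *Csrnp3* within pairs were 0.23, 0.17, 0.031 and 0.11, and they averaged 0.20 over replicates 1 and 2 and 0.073 over replicates 3 and 4.

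**Figure D1:**
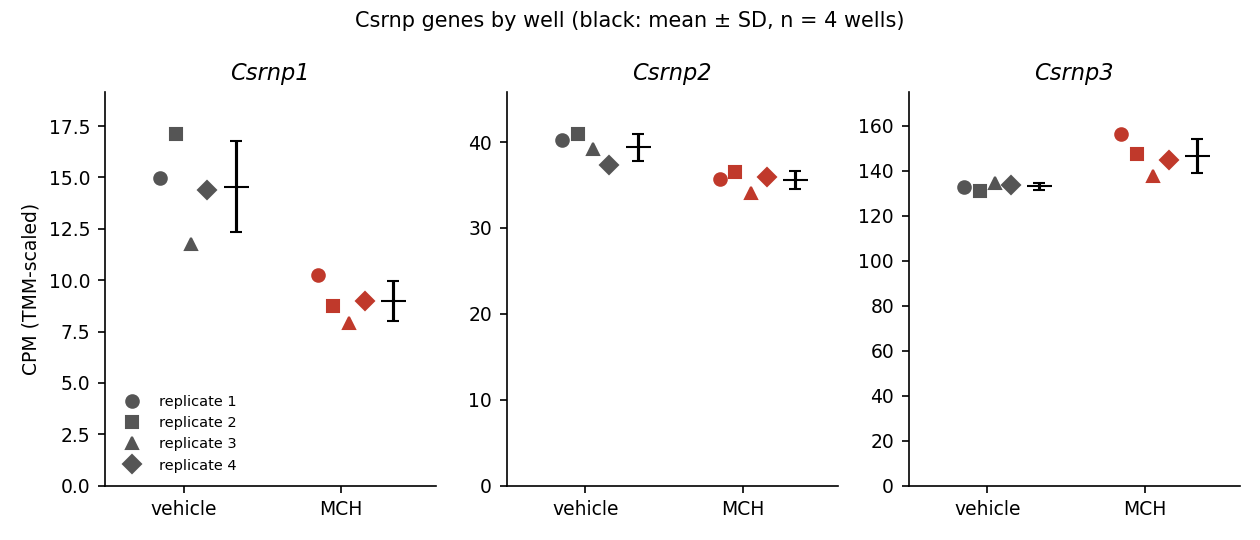
CPM of Csrnp1, Csrnp2 and Csrnp3 in each well, on linear axes that start at 0, with replicates 1 to 4 as symbols and the mean ± SD of 4 wells in black. The 4 MCH wells lie below the 4 vehicle wells for Csrnp1 and Csrnp2 and above them for Csrnp3, where the vehicle wells span 131 to 135 CPM.

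The 4 vehicle wells of *Csrnp1* varied more than those of the other two members. Its coefficient of variation was 15.2% in vehicle and 10.7% in MCH wells, against 4.00% and 2.96% for *Csrnp2*. That of *Csrnp3* was 5.24% in the MCH wells. The biological coefficients of variation of *Csrnp2* and *Csrnp3*, 5.91% and 5.58%, were above those of 16.0% and 10.9% of the tested genes. *Csrnp1* was on average lower in replicates 3 and 4 than in replicates 1 and 2, by log2 differences of −0.30 in vehicle and −0.17 in MCH. The same differences were −0.086 and −0.047 for *Csrnp2* and 0.024 and −0.10 for *Csrnp3*. The astrocyte markers differed along the same split, and their part in the levels of the members was not tested.

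Levels of the members were compared in TPM, which is scaled for transcript length. *Csrnp3* was the highest with 31.9 ± 1.66 TPM in vehicle and 36.1 ± 0.984 TPM in MCH. *Csrnp2* held 17.1 ± 0.604 and 15.7 ± 0.450 TPM, and *Csrnp1* 9.35 ± 1.34 and 5.87 ± 0.630 TPM (SD, *n* = 4). The order held in 8 of 8 wells. *Csrnp3* stood 2.07-fold above *Csrnp2* (two-sided exact sign-flip permutation test over 8 wells, *P* = 0.00781, the smallest 8 wells allow). *Csrnp2* stood at 1.86 ± 0.277 times the level of *Csrnp1* in vehicle and at 2.70 ± 0.245 times in MCH (SD, *n* = 4), a step that was not tested because the level of *Csrnp1* in the MCH wells chose the gene. The vehicle levels of *Csrnp1*, *Csrnp2* and *Csrnp3* stood above those of 38.8%, 50.7% and 64.9% of the tested genes.

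The size of the step between *Csrnp3* and *Csrnp2* depends on how reads are divided among *Csrnp3* transcripts of unequal length. With the longest transcript of *Csrnp3* alone, a scale chosen after the data were seen, *Csrnp3* stood at 1.04 ± 0.0779 times *Csrnp2* in vehicle (range 0.966 to 1.15) and at 1.27 ± 0.0731 times in MCH, and was higher in 7 of 8 wells. On that scale the levels of *Csrnp2* and *Csrnp3* were close in the vehicle wells. With all *Csrnp3* reads divided by the length of that transcript, the ratios were 1.26 ± 0.0619 and 1.53 ± 0.0643 (SD, *n* = 4).

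The summed level of the family was 58.4 ± 2.48 TPM in vehicle and 57.7 ± 1.91 TPM in MCH, while its makeup differed. *Csrnp1* held 16.0 ± 2.04% of the sum in vehicle and 10.2 ± 0.815% in MCH. *Csrnp3* held 54.6 ± 1.82% and 62.6 ± 0.432%, and *Csrnp2* 29.4 ± 0.512% and 27.3 ± 0.459% (SD, *n* = 4). Since these shares add up to a whole and contain *Csrnp1*, they were not tested.

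The ratio of *Csrnp3* to *Csrnp2*, which leaves *Csrnp1* out, was 1.93, 1.79, 1.89 and 1.83 in the vehicle wells and 2.33, 2.26, 2.30 and 2.30 in the MCH wells. The treatments did not overlap, and the gap between them was wider than the range within either. The ratio was 1.24-fold higher after MCH, a log2 difference of 0.31 (*P* = 0.0286, two-sided exact permutation test over 70 assignments, the lowest they can give). The difference was 0.30 over replicates 1 and 2 and 0.31 over replicates 3 and 4, and 0.29 on each of the other length scales described above. Paired by replicate number, the exact sign-flip permutation *P* value was 0.125, the smallest that 4 pairs allow. The opposite directions of *Csrnp2* and *Csrnp3* in these wells were known when the ratio was chosen. In TPM every MCH well was below every vehicle well for *Csrnp2* and above every vehicle well for *Csrnp3*. The ratio therefore had to separate the treatments, and its exact *P* values had to be the smallest possible. They add no evidence beyond that of the 2 genes.

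**Figure D2:**
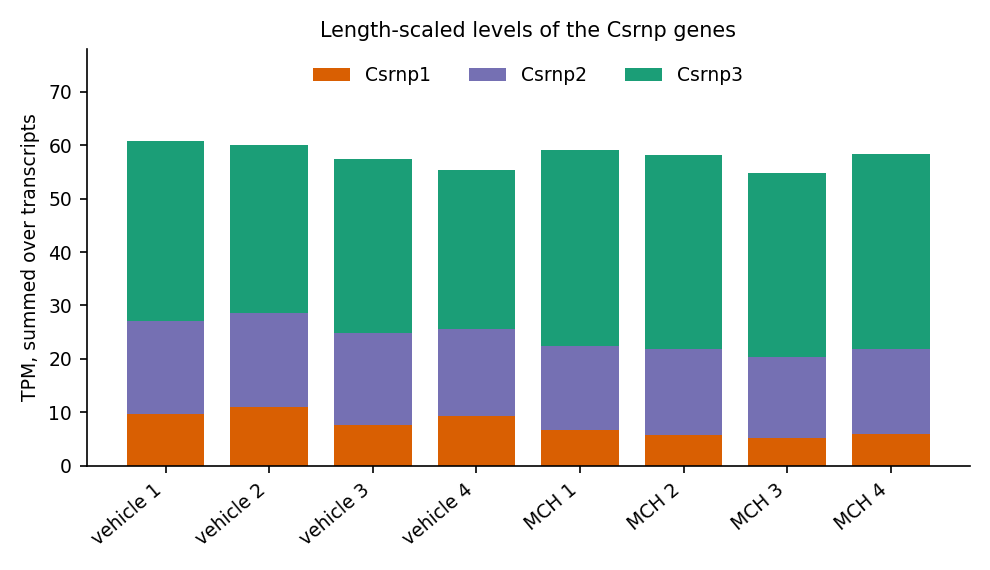
Stacked TPM of the Csrnp genes in each well, summed over the transcripts of each gene, on a linear axis from 0. The stacks reach 55.3 to 60.7 TPM in vehicle and 54.9 to 59.2 TPM in MCH wells, with a smaller Csrnp1 part and a larger Csrnp3 part in the MCH wells.

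Within *Csrnp3*, most reads were assigned to the longest transcript, Csrnp3-204 (ENSMUST00000122912, 10672 bases), which starts at the upstream promoter. It took 82.8 ± 2.20% of the *Csrnp3* reads in vehicle and 83.1 ± 1.67% in MCH, and 17.8 ± 0.697 and 20.0 ± 1.35 TPM (SD, *n* = 4). The second, Csrnp3-208 (ENSMUST00000176109, 2958 bases), starts downstream and held 10.1 ± 1.49 TPM in vehicle and 9.69 ± 1.22 TPM in MCH. By coding sequence, a grouping made after the data were seen, transcripts of 597 codons held 61.3 ± 4.79% of *Csrnp3* TPM in vehicle and 60.8 ± 1.34% in MCH. Those of 585 codons held 37.6 ± 4.47% and 38.4 ± 1.84%. The shares of both coding forms differed between treatments by less than the SD of the vehicle wells.

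A minor transcript of *Csrnp3*, Csrnp3-202 (ENSMUST00000112394), was present or absent from well to well. It was listed at 3.91 TPM in vehicle replicate 1 and at 0 in the other vehicle wells, and at 4.33, 3.67 and 2.96 TPM in MCH replicates 2, 3 and 4 and at 0 in MCH replicate 1. The treatments therefore overlap. Reads shared with other *Csrnp3* transcripts are divided by an estimate, so an exact 0 here may not mean an absent transcript.

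None of 33527 transcripts tested had an adjusted *P* value under 0.05 by the quasi-likelihood test of edgeR (Benjamini-Hochberg adjusted) (0%), with 1476 at an unadjusted *P* value under 0.05. DESeq2 called 219 of 69767 transcripts. The main *Csrnp3* transcript had a log2 fold change of 0.14 (SE 0.05) with overlapping wells. Of the 8 *Csrnp3* transcripts, 5 were tested and none passed. The single *Csrnp2* transcript had −0.15 (SE 0.05) and an adjusted *P* value of 0.981, given by that test of edgeR, Benjamini-Hochberg adjusted.

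**Figure D3:**
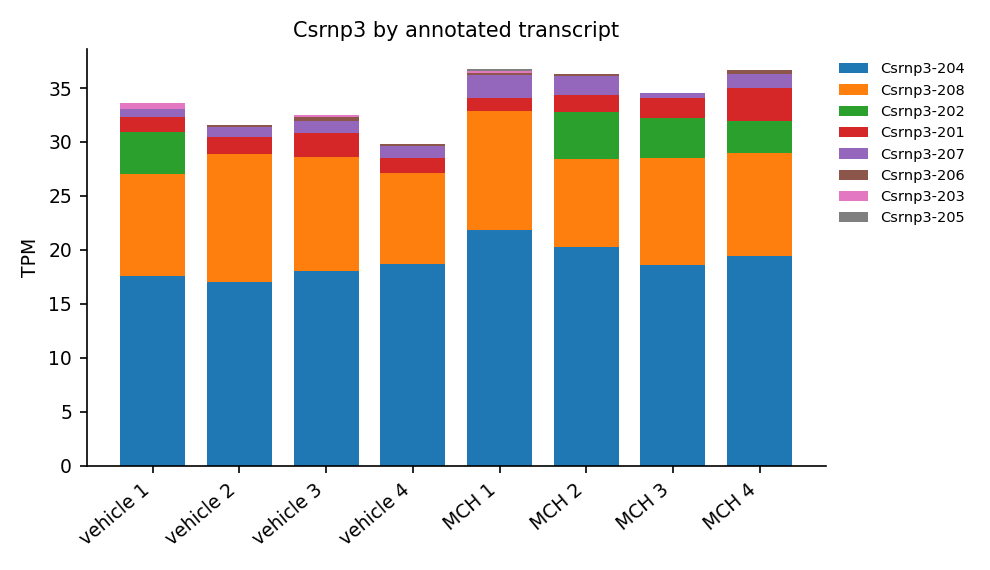
Stacked TPM of the 8 annotated Csrnp3 transcripts in each well, on a linear axis from 0. Csrnp3-204 and Csrnp3-208 form most of each stack, and Csrnp3-202 is seen in vehicle replicate 1 and in MCH replicates 2, 3 and 4 and is at 0 in the others.

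Correlations between the members were weaker within treatments than over all wells. Over the 8 wells, log2 CPM of *Csrnp1* and *Csrnp2* had a Pearson *r* of 0.88 and a Spearman rho of 0.88, and *Csrnp3* had *r* of −0.65 with *Csrnp1* and −0.64 with *Csrnp2*. After the treatment means were removed, *r* was 0.47 between *Csrnp1* and *Csrnp2*, 0.36 between *Csrnp1* and *Csrnp3* and 0.24 between *Csrnp2* and *Csrnp3*, with rho of 0.55, −0.095 and −0.12. The wells share cultures and treatments, so these values are descriptions.

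The gene whose log2 CPM was most like that of *Csrnp1* over the 8 wells was *Man1a*, a Golgi mannosidase (*r* = 0.985), followed by *Pard6a*, a cell polarity protein (0.984), *Midn* (0.980), *Cul3*, a ubiquitin ligase scaffold (0.976), and *Dusp4*, a MAP kinase phosphatase (0.976). *Man1a* and *Midn* were among the 35 called genes, with log2 fold changes of −0.53 and −0.38. For *Csrnp2* the closest were *Lman2* (0.986), a cargo receptor of the secretory pathway, *Amigo2* (0.975), an adhesion protein, and *Orai1* (0.972), the pore of the store-operated calcium channel. For *Csrnp3* the closest was *Rc3h2* (0.994), an RNA-binding protein that promotes mRNA decay, and *Ddx46* (0.977), a splicing helicase, was also among the first 5. *Rc3h2* also headed the list for *Csrnp3* once treatment means were removed (0.998), as did *Pard6a* for that of *Csrnp1* (0.989). For *Csrnp2* none of the first 5 genes was shared by the 2 lists. Each was picked from all tested genes over only 8 wells.

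The other immediate early genes gave the setting for *Csrnp1*. Of 34 listed and tested, 8 had an adjusted *P* value under 0.05 by the quasi-likelihood test of edgeR (Benjamini-Hochberg adjusted) and 0 were higher. The 8 lower genes were the transcription factor genes *Fos*, *Fosb*, *Fosl2*, *Nr4a2* and *Npas4*, the kinase gene *Sik1* and the synaptic genes *Arc* and *Homer1*. Without the block 22 of the 34 had an unadjusted *P* value under 0.05, against 8.50% of all tested genes, of which 0.234% were called. The replicate block called 20 lower and 1 higher, against 3.98% of all genes. DESeq2 called 15 lower, against 154 of 24132 genes, and limma voom 7 lower, against 31 of 14962. The median log2 fold change of the list was −0.36 (range −1.05 to 0.34), against −0.0027 over all tested genes. The *Csrnp1* value of −0.69 lay below that median, between *Fosb* at −0.80, which passed the test, and *Trib1*, a pseudokinase gene, at −0.67 (adjusted *P* = 0.296), which did not. *Nr4a1* (−1.05, 0.126), *Ier3* (−0.96, 0.122) and *Egr2* (−0.91, 0.180) had lower values than *Csrnp1* and did not pass either, by that test of edgeR with its Benjamini-Hochberg adjusted *P* values. The study itself, which used DESeq2, names *Nr4a1* as its most downregulated gene. *Egr1* (−0.17, adjusted *P* = 0.544 by that test of edgeR, Benjamini-Hochberg adjusted) and *Jun* (0.25, 0.681) did not pass. The earlier results of this study guided the list, so its direction is not independent evidence.

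**Figure D4:**
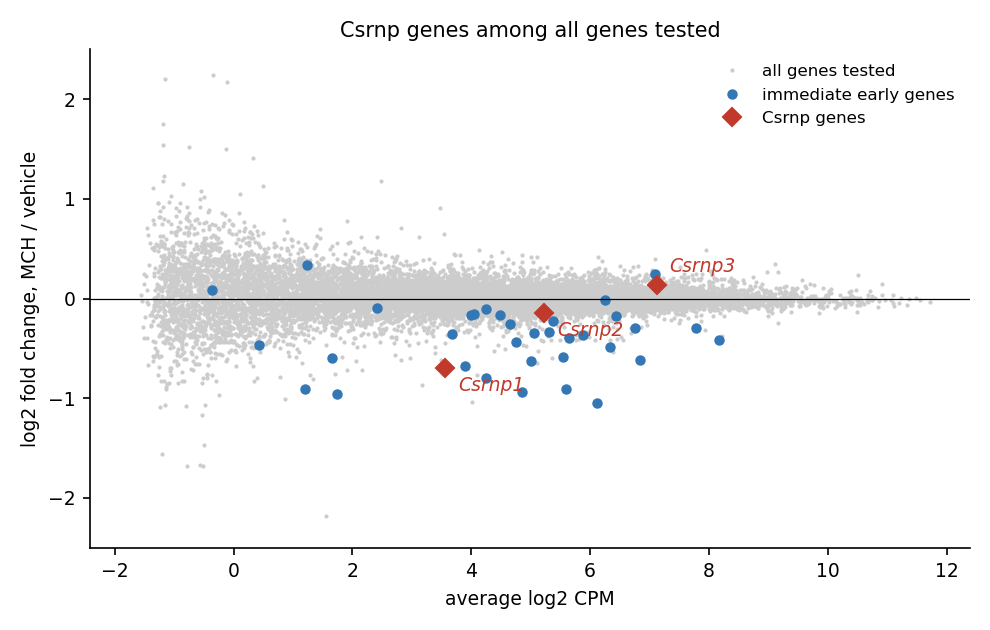
Log2 fold change (MCH over vehicle) against average log2 CPM for the tested genes, in grey, with 34 immediate early genes in blue and the Csrnp genes as red diamonds; 5 genes beyond 2.5 in either direction are outside the plotted range. Csrnp1 lies at −0.69 among the lower immediate early genes, and Csrnp2 and Csrnp3 lie at −0.15 and 0.14, near 0.

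RNA levels were compared for lists of genes from the pathways that gave the family its other names. These levels do not measure the activity of the pathways. Of 17 Wnt feedback and effector genes tested out of 20, 0 were called by edgeR's test, 2 had an unadjusted *P* value under 0.05 (8.50% over all tested genes, here and for the lists that follow), and neither DESeq2 nor limma voom called any. The median was 0.14. *Axin1*, whose product induces *Csrnp1* in other cells, had a log2 fold change of −0.16 (SE 0.07) and an adjusted *P* value of 0.597, and *Axin2*, a Wnt feedback gene, had 0.03 (SE 0.06) and 0.990 (edgeR's quasi-likelihood test, Benjamini-Hochberg adjustment). The treatments overlapped for both.

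Of 20 TGF-beta pathway and target genes tested out of 22, 0 were called by edgeR's test, 3 had an unadjusted *P* value under 0.05, DESeq2 called 1 lower and limma voom 0, with a median of −0.018. Of 30 subunits of protein phosphatase 1, 0 were called by edgeR's test, 3 had an unadjusted *P* value under 0.05, DESeq2 called 1 lower and limma voom 0, with a median of −0.030. The catalytic subunit genes *Ppp1ca*, *Ppp1cb* and *Ppp1cc* had log2 fold changes of −0.036, −0.028 and −0.15. Only for *Ppp1cc* among these did all MCH wells lie below all vehicle wells, and its adjusted *P* value was 0.182 by the quasi-likelihood test of edgeR (Benjamini-Hochberg adjusted). The same held for *Ppp1r16a* (−0.11) among the other subunits and for *Smad7* (−0.43, adjusted *P* = 0.140 by that test) among the TGF-beta genes. It held for 2.96% of all tested genes. For *Ppp1r10* (0.14) all MCH wells lay above all vehicle wells, as in 3.07% of all tested genes. With the replicate block 2 Wnt genes were higher, 3 TGF-beta genes lower, and 3 phosphatase genes lower and 1 higher. That fit called 3.98% of all genes, and DESeq2 called 154 of 24132.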

How the data were processed

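Bulk RNA-seq of 4 vehicle-treated and 4 MCH-treated wells was used. Reads had been run through nf-core/rnaseq with salmon quantification (GRCm38) by the authors, who deposited estimated counts per gene, not scaled for depth, and per-well transcript tables with estimated counts, effective lengths and TPM. Totals of 26083936 to 31844861 counts set the precision. Gene TPM are sums over transcripts. Identifiers were matched to GENCODE vM21, which named 45143 genes; the annotation behind the deposited tables is not given in the sources used here.

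Counts were rounded and tested in R 4.3.3 with edgeR 4.0.16 (TMM, filterByExpr with a count minimum of 10 and total minimum of 15, robust quasi-likelihood F test, no block, Benjamini-Hochberg adjustment over 14962 genes, threshold 0.05). The SE is the log2 fold change over the square root of F. Single values had two-sided exact permutation tests. Log2 CPM used a prior count of 2 for the principal component and the correlations. The permutation tests of single genes and the differences between wells used log2 CPM without a prior count. DESeq2 1.42.0, limma voom (limma 3.58.1), RLE size factors, no filter, a length offset, blocks and leaving out each well were alternatives.

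Same-numbered wells of the treatments correlated at 0.445 to 0.545 in deviations from the treatment means, above the 0.1 set for a pairing, so the numbers pair the wells by that rule. Wells of other numbers on the same side of the first component correlated at 0.475 to 0.521, within the range of the same-numbered wells. Same-numbered wells were thus not set apart from others of their side. Wells across the first component correlated at −0.548 to −0.438. The pairing comes from these values only, and the side block was read from the same counts.

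The members, gene lists and tests were chosen with earlier results of these data known, including the directions of *Csrnp1*, *Csrnp2* and *Csrnp3*. Besides members, genes named are from the 5 most alike by Pearson *r* (not all are reported here), list genes past the threshold, and genes tied to a member's names. Some, such as *Egr1*, *Jun*, *Trib1*, *Nr4a1*, *Ier3*, *Egr2*, *Smad7*, *Ppp1r16a*, *Ppp1r10* and *Cx3cr1*, were chosen after their values or positions were seen. Protein sequences were not used here.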

Additional observations from a re-analysis of the deposited data

Results flagged for a closer look

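Of 30 groups of 4 wells checked for a value far from the others, 1 was found, and chance gives about 1 in 20. The transcript Csrnp3-202 was listed at 3.91 TPM in vehicle replicate 1 and at 0 in the other 3 vehicle wells, so that the gap made up the whole range of the group. It was not the only such case. Csrnp3-203 and Csrnp3-205, which were not flagged, were listed at 0.241 and 0.151 TPM in MCH replicate 1 and at 0 in the other MCH wells.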

How the results depend on the processing

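*Csrnp1*, *Csrnp2* and *Csrnp3* kept their direction in every alternative run, but this was largely fixed beforehand. In CPM, each gene had its MCH values all above or all below its vehicle values. Dropping a well could therefore hardly reverse a direction, and the other fits used the same counts. For *Csrnp1* the direction also comes from the contrast that chose the gene. The kept directions thus add little evidence. *Csrnp1* lay between −0.78 and −0.60 with a well left out, and *Csrnp2* between −0.17 and −0.12 (adjusted *P* 0.365 to 0.825, edgeR). *Csrnp3* lay between 0.11 and 0.17 with a well left out (0.327 to 0.747), and passed with the replicate block (0.14) and the side block (0.14). The replicate block did not change the call of *Csrnp2*, and *Csrnp1* was not tested in any fit. The ratio of *Csrnp3* to *Csrnp2* changed by 0.31 with the replicate block (exact *P* = 0.125), and its level value stayed within 1.02 to 1.08 on the log2 scale with a well left out. The 35 called genes of 14962 became 154 of 24132 with DESeq2. They became 7 with the length offset, 596 with the replicate block and 668 with the side block, each of 14962. With a well left out there were 4 to 29. The counts were 5, 9 and 4 without vehicle replicates 1, 2 and 4 and 12, 10 and 7 without MCH replicates 2, 3 and 4. In the same fits the 8 called genes of the lists became 17, 5, 32 and 28, to be read beside those calls over all genes. With a well left out there were 3 to 8, with 4, 4 and 3 without vehicle replicates 1, 2 and 4 and 5 without MCH replicate 4. The 0 called transcripts of 33527 became 219 of 69767 with DESeq2, 6 with the side block and 0 to 1 with a well left out. The causes were not tested. At 229 to 472 counts per well, *Csrnp1* is the least precisely measured member.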
